A study of Mus musculus with 16 samples.

Results

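Cholesterol and fatty acid synthesis genes were followed in the intervertebral discs of Sox9 knockout and control mice. The set was chosen by name: 31 listed genes of the mevalonate pathway, the steps from squalene synthesis to cholesterol, sterol regulation and transport, and fatty acid synthesis. Of these, 27 carried a named probe set, 1 each, out of 19505 named genes, and Acat2, Tm7sf2, Srebf1 and Scd2 were not named among the probe sets used here. The genes were listed by name with earlier results of these data known, so the shares below are descriptions. The rule takes for each gene the probe set with the highest mean over the 16 arrays.

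The tissues were the nucleus pulposus (NP), the gel-like centre of the disc, and the annulus fibrosus (AF), the fibrous ring around it. The 4 groups of 4 arrays were NP cKO, NP CTR, AF cKO and AF CTR, from 8 female mice of 3 to 4 months. The conditional knockout mice (cKO) carry Sox9fl/fl, with both Sox9 alleles flanked by loxP sites, and AcanCreERT2, an inducible Cre expressed where the aggrecan gene is active. They received tamoxifen on consecutive days. The control mice (CTR) carry Sox9fl/fl with no Cre named, and whether they received tamoxifen is not said, so that drug and genotype cannot be told apart. Discs were collected 5 days after injection began, with lumbar and tail discs of an animal pooled, and each animal gave 1 NP and 1 AF array. Replicates are therefore separate animals. The driver limits the model, since cells of either compartment that do not express Acan keep Sox9.

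Animal cells make cholesterol from acetyl-CoA through mevalonate, isoprenoid diphosphates and squalene, and make fatty acids from the same acetyl-CoA through malonyl-CoA. Both routes are driven by the sterol regulatory element binding proteins (SREBPs), which are held in the endoplasmic reticulum by the escort protein Scap and its anchors Insig1 and Insig2 while sterols are plentiful, and are cut and sent to the nucleus when sterols fall. Cells of the inner disc have little direct blood supply and lie in a matrix they make themselves.

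All values are log2 signals, and a difference of 1 is a doubling of signal. Array medians lay between 6.66 and 6.89, and negative control probe sets had medians of 6.14 to 6.59 per array, so that a signal near those values cannot be separated from background. Of the 27 genes, 1, Mvk, had a mean over 16 arrays under the highest negative control median. Signals of different probe sets are not on a common scale, and only the same gene is compared between groups. Sox9 averaged 9.75 ± 0.25 in NP cKO and 16.27 ± 0.36 in NP CTR, and 12.24 ± 0.65 in AF cKO and 16.92 ± 0.51 in AF CTR (SD, n = 4 each). The labelled tissues were checked against 10 NP and 10 AF and tendon markers. Krt8, Krt18, Krt19, Cd24a and Cdh2 had higher mean signals in NP and Col1a1, Col1a2, Tnmd, Mkx, Scx, Thbs4, Fmod, Dcn and Prelp in AF, in both genotypes. The AF and tendon marker Kera had 4.07 in AF CTR and 4.10 in NP CTR, under the negative control medians. The NP markers Foxa2, Tek and Car12 had lower mean signals in NP than in AF in both genotypes, Shh had a lower one in CTR, and the notochord marker T was not named. Foxa2 in all 4 groups (5.26 to 6.41), Tek in all but AF cKO and Car12 in all but AF CTR averaged under the highest negative control median. Car12 averaged 5.10 ± 0.15 in NP cKO and 5.65 ± 0.09 in AF cKO, and 4.93 ± 0.40 in NP CTR and 8.50 ± 2.36 in AF CTR (SD, n = 4 each). The pools hold all cells of a dissected tissue, so that fewer cells of a type and less RNA per cell cannot be told apart.

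The proximal promoters of 4 genes on which the comparisons below turn are shown to set them beside the letters through which SREBPs and their partners are known to bind. They are 300 bases each, with 250 before and 50 after the RefSeq start (GRCm38.p6, plus strand): Hmgcs1 at chr13:119690101-119690400, Idi1 at chr13:8885356-8885655, Osbpl8 at chr10:111164552-111164851 and Srebf2 at chr15:82147019-82147318. Capitals mark matches on either strand to TCACNCCA (a core of the sterol regulatory element), CCAAT (the box bound by NF-Y, a partner of SREBPs) or CACGTG (an E-box).
Hmgcs1: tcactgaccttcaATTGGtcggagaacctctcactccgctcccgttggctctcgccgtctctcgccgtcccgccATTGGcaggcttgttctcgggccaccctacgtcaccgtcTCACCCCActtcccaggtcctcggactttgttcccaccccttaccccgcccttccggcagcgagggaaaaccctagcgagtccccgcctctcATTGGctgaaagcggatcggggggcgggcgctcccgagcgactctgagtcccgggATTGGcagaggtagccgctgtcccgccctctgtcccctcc
Idi1: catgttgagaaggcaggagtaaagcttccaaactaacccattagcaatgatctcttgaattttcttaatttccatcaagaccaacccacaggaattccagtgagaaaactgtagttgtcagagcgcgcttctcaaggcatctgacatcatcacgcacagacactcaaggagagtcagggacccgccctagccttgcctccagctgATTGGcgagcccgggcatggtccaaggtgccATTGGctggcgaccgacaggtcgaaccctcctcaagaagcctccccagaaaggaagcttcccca
Srebf2: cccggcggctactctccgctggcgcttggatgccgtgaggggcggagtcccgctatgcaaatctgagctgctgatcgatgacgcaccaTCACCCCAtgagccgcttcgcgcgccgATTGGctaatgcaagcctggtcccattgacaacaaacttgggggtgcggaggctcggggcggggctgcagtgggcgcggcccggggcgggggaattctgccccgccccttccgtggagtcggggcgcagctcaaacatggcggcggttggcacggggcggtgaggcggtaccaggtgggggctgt
Osbpl8: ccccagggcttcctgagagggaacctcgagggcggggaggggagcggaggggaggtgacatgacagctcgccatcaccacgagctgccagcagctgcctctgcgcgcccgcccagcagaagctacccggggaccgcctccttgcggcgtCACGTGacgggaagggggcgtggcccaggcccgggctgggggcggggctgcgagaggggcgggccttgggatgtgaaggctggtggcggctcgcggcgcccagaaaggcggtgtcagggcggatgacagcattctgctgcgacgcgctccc
Hmgcs1 held the sterol element core 137 bases before its start and 4 CCAAT boxes, and Srebf2 held the core 162 bases before its start and 1 CCAAT box. Idi1 held 2 CCAAT boxes and no match to the core, and Osbpl8 held neither, with an E-box 101 bases before its start. Among the 22 of 27 measured genes with a promoter entry, 18 (81.8%) held CCAAT, against 41.1% of 27025 genes. CACGTG was found in 6 (27.3%, against 8.09% of genes), namely Dhcr7, Hsd17b7, Insig1, Osbpl8, Sc5d and Scap. TCACNCCA was found in 3 (13.6%, against 4.97% of genes), namely Hmgcs1, Msmo1 and Srebf2. These are letter matches in 1 window per start and say nothing of binding, and the letters of the 3 motifs do not overlap in the windows printed.

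In cKO discs, sterol and fatty acid synthesis genes were lower in NP than in AF wherever a difference passed the test. Of the 27 genes, 10 were called at an adjusted p under 0.05 in limma, over all 22206 probe sets, and all 10 were lower in NP. That is 37.0% of the genes, where 25.9% of all probe sets were called in either direction and 12.6% were called lower. Of the probe sets with a mean above the negative control median, 16.1% were called lower and 11% higher. The median difference of the 27 genes was -0.38, against 0.07 over all probe sets, and 22 of the 27 had a negative value, against 45.6% of all probe sets.

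Among the mevalonate genes, 2 of 6 were called lower in NP cKO than in AF cKO. Idi1, the isomerase that makes the activated isoprene unit, had 7.69, 7.53, 7.40 and 7.48 in NP cKO replicates 1 to 4, against 9.01, 9.01, 8.77 and 8.65 in AF cKO. The groups lay far apart, with a difference of -1.33 (SE 0.19), or 2.52-fold, at an adjusted p of 7.5e-05 in limma. Hmgcs1, which makes the HMG-CoA that feeds the pathway, had 9.64, 10.78, 11.32 and 11.19 in NP cKO and 11.69, 12.01, 12.49 and 12.02 in AF cKO. NP cKO replicate 1 was the lowest of all 16 arrays and the groups did not overlap (-1.32, SE 0.31, adjusted p = 0.00516 in limma). The other mevalonate genes, the kinases Mvk and Pmvk, the decarboxylase Mvd and the prenyl synthase Fdps, differed by -0.38 to -0.04 and were not called.

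Among the genes of the steps from squalene synthesis to cholesterol, 4 of 10 were called lower in NP cKO. Hsd17b7, a sterol ketone reductase, had 8.75, 8.68, 8.67 and 8.39 in NP cKO and 9.48, 9.52, 10.04 and 9.10 in AF cKO, without overlap (-0.91, SE 0.22, adjusted p = 0.00553 in limma). Cyp51, the lanosterol demethylase, differed by -1.01 (SE 0.33), Nsdhl, a sterol dehydrogenase, by -0.92 (SE 0.31), and Sc5d, a sterol desaturase, by -0.99 (SE 0.29). Their adjusted p in limma was 0.0296, 0.0351 and 0.0179 in that order. Fdft1, the squalene synthase, and Lss, the lanosterol synthase, differed by -0.03 (95% interval -0.49 to 0.42) and 0.27 (-0.29 to 0.83). Sqle, the squalene epoxidase, differed by -0.35 (-0.83 to 0.14) and was not called either. The 4 genes called act after lanosterol, and 3 other genes of those later steps, Msmo1 (-0.62), Ebp (-0.27) and Dhcr7 (0.56), were not called.

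Of the regulators, Insig1, itself an SREBP target that retains SREBPs, had 8.45, 8.44, 9.07 and 8.72 in NP cKO, against 10.22, 10.15, 9.89 and 9.08 in AF cKO. AF cKO replicate 4 came close to the highest NP array and the others were over a full unit higher than the NP mean (-1.17, SE 0.24, adjusted p = 0.00165 in limma). Srebf2, which encodes the SREBP of sterol genes, had 12.66, 13.44, 13.17 and 13.09 in NP cKO and 13.78, 14.05, 14.05 and 13.62 in AF cKO (-0.79, SE 0.22, adjusted p = 0.0154 in limma). Scap, Insig2 and the sterol carrier Stard4 were not called, with differences of 0.20, -0.37 and -0.20. Of the fatty acid genes, 2 of 5 were lower in NP cKO. Elovl6, which lengthens palmitate, had 6.28, 6.91, 6.65 and 6.80 in NP cKO, against 8.004, 7.84, 8.95 and 7.31 in AF cKO, with no overlap (-1.36, SE 0.33, adjusted p = 0.00551 in limma). Its NP signal lies close to the negative control medians, so no fold is given. Fasn, the fatty acid synthase, averaged 7.63 ± 0.36 in NP cKO and 8.59 ± 0.23 in AF cKO (SD, n = 4 each), a difference of -0.96 (SE 0.27, adjusted p = 0.0147 in limma).

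The calls of Idi1, Hmgcs1, Hsd17b7, Insig1 and Elovl6 in cKO held without any single array, and the other 5 did not. Leaving out NP cKO replicate 1 ended the calls of Fasn (adjusted p = 0.0529 in limma) and Srebf2 (0.0599), and that of Sc5d ended without AF cKO replicate 2 (0.0673) or 3 (0.0553). Cyp51 was lost without any 1 of NP cKO replicates 1, 2 and 4 and AF cKO replicates 2 and 3 (0.0598 to 0.104), and Nsdhl without any 1 of NP cKO replicates 2 and 4 and AF cKO replicates 2 and 3 (0.0750 to 0.122). A second quantile normalization also ended the cKO calls of Cyp51 (0.0593) and Nsdhl (0.0887).

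**Figure D1:**
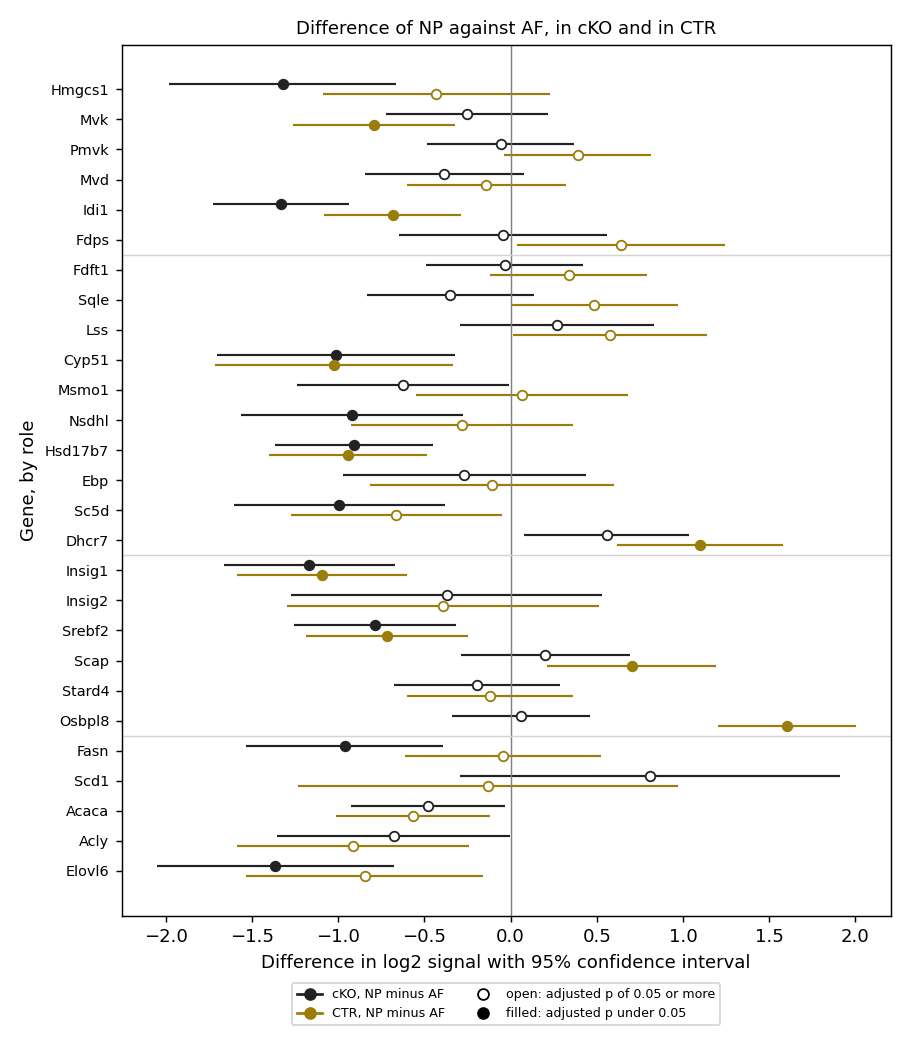
Difference in log2 signal, NP minus AF, for each of the 27 genes by role, in cKO (black) and in CTR (ochre), with the 95% confidence interval of the limma fit as a bar and filled points for an adjusted p under 0.05. The 10 filled cKO points all lie below 0, and of the 9 filled CTR points 6 lie below 0 and 3 above, with Osbpl8 at 1.60 the farthest to the right.

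In CTR discs, genes differed between the tissues in both directions. Of the 27 genes, 9 were called (33.3%, against 20.1% of all probe sets), 3 higher in NP (11.1%, against 9.96%) and 6 lower (22.2%, against 10.1%). The share called higher was thus near that of all probe sets. Among probe sets with a mean above the negative control median, 11.3% were called higher and 11.7% lower. The median difference was -0.14, against 0.04 over all probe sets, with 18 of 27 values negative, against 47.2% of all probe sets.

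Osbpl8, an exchanger of phospholipids at contacts between endoplasmic reticulum and plasma membrane from the oxysterol-binding family, had the smallest p. It had 10.77, 10.58, 11.03 and 10.18 in NP CTR, against 8.97, 9.27, 9.07 and 8.85 in AF CTR, with every NP array above every AF array (1.60, SE 0.19, 3.03-fold, adjusted p = 9.7e-06 in limma). Dhcr7, the reductase of the last step of one branch to cholesterol, had 8.80, 8.39, 8.33 and 8.82 in NP CTR and 7.63, 7.47, 7.496 and 7.35 in AF CTR (1.10, SE 0.23, adjusted p = 0.00214 in limma). Scap averaged 11.72 ± 0.30 in NP CTR and 11.02 ± 0.24 in AF CTR (SD, n = 4 each), a difference of 0.70 (SE 0.23, adjusted p = 0.0397 in limma). These 3 were the genes called higher in NP CTR.

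The genes called lower in NP CTR were led by Insig1, with 8.64, 8.59, 8.63 and 8.34 in NP CTR and 9.87, 9.69, 9.36 and 9.67 in AF CTR (-1.09, SE 0.24, adjusted p = 0.00276 in limma). Hsd17b7 had 8.20, 8.48, 8.80 and 8.26 in NP CTR and 8.97, 9.65, 9.39 and 9.51 in AF CTR (-0.94, SE 0.22, adjusted p = 0.00477 in limma). In both genes the highest NP array lay under the lowest AF array. Cyp51 differed by -1.03, Mvk by -0.79, Srebf2 by -0.72 and Idi1 by -0.68, at adjusted p of 0.0148 to 0.0339 in limma. The Mvk signal in NP CTR, 5.83 ± 0.42 (SD, n = 4), lay under the negative control median on all arrays and is only a bound. No fatty acid gene was called in CTR by limma, though 3 of 5 had an unadjusted p under 0.05, and Acly, which makes cytosolic acetyl-CoA, differed by -0.91 (SE 0.32, adjusted p = 0.0523 in limma), Elovl6 by -0.85 and Fasn by -0.04 (95% interval -0.61 to 0.52).

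NP and AF of one animal are paired. In a fit of the 8 CTR arrays with the animal as a block, 6 of the 27 genes were called. Idi1, Mvk, Scap and Srebf2 were lost (adjusted p of 0.0659, 0.0677, 0.0557 and 0.0973 in limma, in that order) and Acly was gained. The 8 arrays without the block already lost Srebf2 (0.0564) and gained Acly. In cKO, 10 were called in both 8-array fits. With single arrays left out, the CTR call of Cyp51 was lost in 6 cases (NP CTR replicates 1, 2 and 4, AF CTR replicates 1 to 3, adjusted p of 0.0573 to 0.110), Scap in 4 (NP CTR replicates 2 and 3, AF CTR replicates 1 and 4, 0.0844 to 0.105) and Srebf2 in 3 (NP CTR replicates 2 and 4, AF CTR replicate 2, 0.0844 to 0.106). Mvk was lost in 3 cases (NP CTR replicates 1 and 2, AF CTR replicate 2, 0.0536 to 0.0629) and Idi1 without NP CTR replicate 4 (0.0609), and the calls of Osbpl8, Dhcr7, Insig1 and Hsd17b7 held without any single array. The normalization also mattered in CTR: centring the arrays on their medians ended the calls of Cyp51 (0.0635) and Srebf2 (0.0865), and a second quantile normalization that of Scap (0.0512).

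The comparisons of NP with AF in cKO and in CTR share no array. Idi1, Cyp51, Hsd17b7, Insig1 and Srebf2 were called in both, 5 of the 10 genes called in cKO and 5 of the 9 called in CTR, each lower in NP in both genotypes. Over all probe sets, 13.2% were called in both in the same direction, against 5 of 27 here. With the animal as a block, Idi1 and Srebf2 were not called in CTR (adjusted p of 0.0659 and 0.0973 in limma).

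Marker genes of other cell types also differed between the tissues. Of 9 endothelial markers measured, 8 were called lower in NP in cKO and 8 in CTR, and their mean signal per array was 5.30 to 5.62 in NP cKO against 6.98 to 7.85 in AF cKO, and 5.38 to 5.59 in NP CTR against 6.59 to 7.82 in AF CTR. All 12 neutrophil markers were called lower in NP cKO than in AF cKO (mean signal 5.65 to 7.87 against 9.49 to 12.93), and 2 of 12 in CTR (6.27 to 7.82 against 6.47 to 11.36). Of 12 skeletal muscle markers, 10 were called lower in NP cKO (5.74 to 5.88 against 6.60 to 10.32) and 1 in NP CTR (5.49 to 5.85 against 6.45 to 7.40). Adipocyte markers, of which 2 of 11 in cKO and 3 in CTR were called lower in NP, had mean signals of 5.70 to 6.03 in NP cKO, 6.13 to 6.76 in AF cKO, 5.68 to 5.78 in NP CTR and 5.94 to 7.49 in AF CTR. Of 8 osteoclast markers, 5 were called lower in NP in cKO and 3 in CTR. The part of these cells in the tissue differences of the synthesis genes was not tested. Without AF cKO replicates 2 and 4, the arrays with the highest muscle signal, 7 of the 27 genes were called in cKO. Fasn (-0.92), Nsdhl (-0.85) and Srebf2 (-0.83) were lost there, against -0.96, -0.92 and -0.79 with all arrays. Without AF cKO replicate 3 and AF CTR replicate 1, 6 were called. These arrays had the highest osteoclast signal (10.89 and 9.92) and the highest neutrophil signal of their groups (12.93 and 11.36). Fewer arrays also make the test weaker, and the cause of the lost calls was not tested. In CTR the counts under the same omissions were 9 and 9. The first omission takes out no CTR array, so the CTR differences could not change, and the same genes as in the full fit were called. The second was without Cyp51 (adjusted p = 0.0908 in limma) and Scap (0.0786) and with Lss and Acly.

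**Figure D2:**
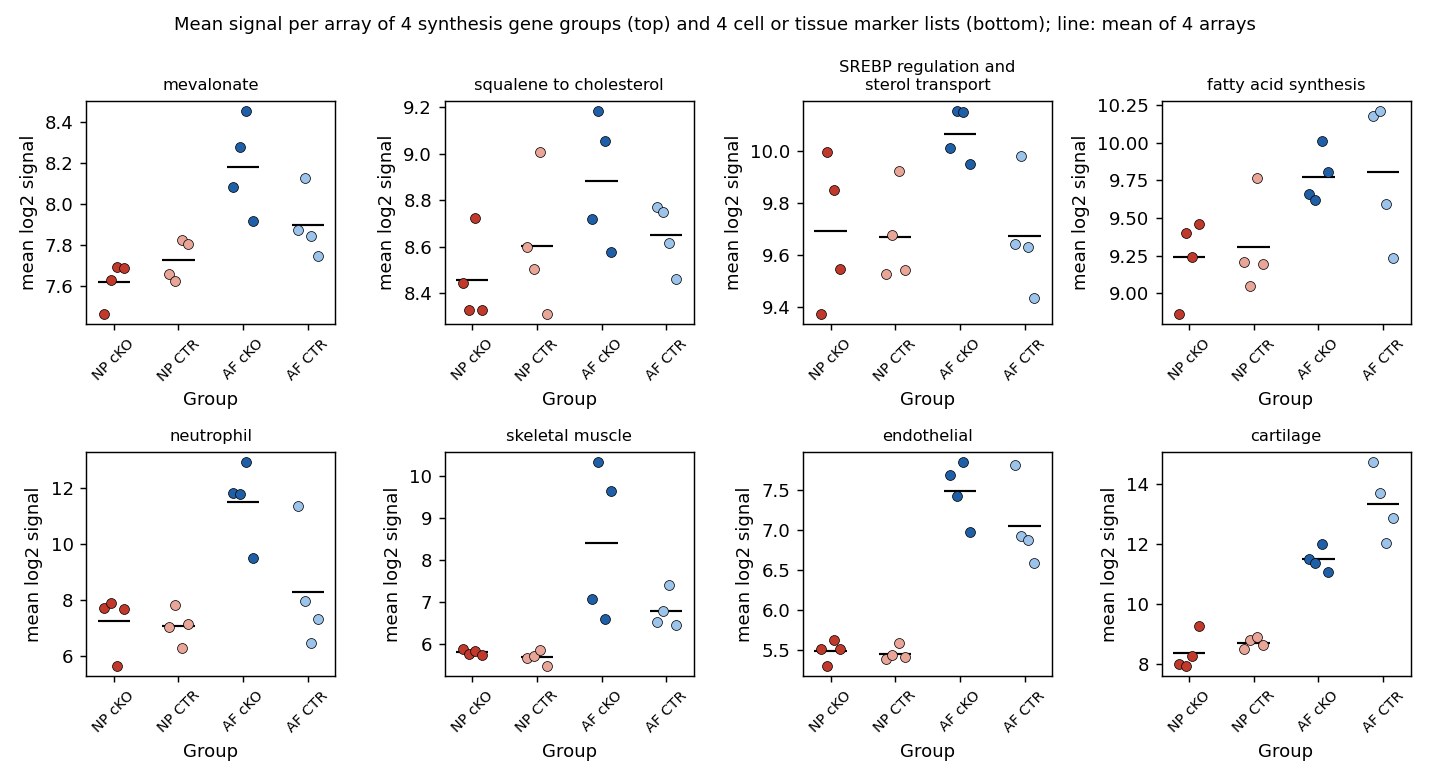
Mean log2 signal per array (points, 4 per group, line at the group mean) of the 4 groups of synthesis genes in the top row and of 4 marker lists in the bottom row, with NP in red and AF in blue and cKO in the darker shade. In AF cKO the neutrophil mean runs from 9.49 to 12.93 and the muscle mean from 6.60 to 10.32, while the mean of the mevalonate genes runs from 7.92 to 8.46.

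In NP, cKO against CTR asks whether these genes differ shortly after deletion of Sox9, which encodes a transcription factor of cartilage cells. None of the 27 genes passed the test, where 0.122% of all probe sets did, and 2 (Fasn and Osbpl8) had an unadjusted p under 0.05 in limma, against 4.58% of all probe sets. The same 2 genes had groups that did not overlap, both lower in cKO, as did 1.82% of all probe sets in that direction. Values were positive for 11 genes and negative for 16, against 50% negative values over all probe sets, and their median was -0.07. At the thresholds named in the labels, an unadjusted p under 0.05 and a 1.75-fold difference, 1 gene (Fasn) passed, against 1.18% of all probe sets.

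Fasn had 7.24, 7.42, 7.85 and 7.997 in NP cKO, against 8.45, 8.01, 9.02 and 8.75 in NP CTR. The highest cKO array lay just under the lowest CTR array, and the groups differed by -0.93 (SE 0.27, adjusted p = 0.453 in limma). Osbpl8 had 10.004, 9.91, 9.94 and 10.12 in NP cKO and 10.77, 10.58, 11.03 and 10.18 in NP CTR (-0.64, SE 0.19, adjusted p = 0.491 in limma). The cKO arrays were tightly grouped, and CTR replicate 4 lay close above them. Hmgcs1 had 9.64, 10.78, 11.32 and 11.19 in NP cKO and 11.06, 11.11, 11.90 and 11.48 in NP CTR (-0.66, SE 0.31, adjusted p = 1.0 in limma), with overlap, and the difference was -0.29 without NP cKO replicate 1.

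Of the other sterol genes, Dhcr7 (-0.43, SE 0.23) and Sc5d (-0.42, SE 0.29) had the lowest values in NP, and neither was called. Insig1 differed by 0.12 (95% interval -0.38 to 0.61) and Srebf2 by 0.21 (-0.26 to 0.68). Sqle, the squalene epoxidase, differed by -0.18 (-0.67 to 0.30) and Scap by -0.33 (-0.82 to 0.16). Scd1, the stearoyl-CoA desaturase, differed by 0.01, with an interval of -1.09 to 1.11 that leaves more than a doubling in either direction within it. Insig2 differed by 0.85 (-0.06 to 1.75), with 6.78, 9.49, 8.03 and 7.40 in NP cKO and 6.60, 6.61, 7.40 and 7.71 in NP CTR. Its replicate 2 of NP cKO was the highest of all 16 arrays.

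In AF, none of the 27 genes passed the test either, where 0.0991% of all probe sets did. At an unadjusted p under 0.05 in limma there were 4 (Osbpl8, Idi1, Sqle and Fdps), against 10.6% of all probe sets, and all 4 had positive values. Groups did not overlap for Idi1, Insig2 and Osbpl8, all higher in cKO, as for 1.79% of all probe sets in that direction. Values were positive for 22 of 27 genes, against 46.4% of all probe sets, and their median was 0.17, against -0.03. At the labels' thresholds 1 gene (Osbpl8) passed, against 3.49% of all probe sets.

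Osbpl8 had 9.77, 9.95, 9.89 and 10.12 in AF cKO, against 8.97, 9.27, 9.07 and 8.85 in AF CTR. Every cKO array lay above every CTR array (0.90, SE 0.19, 95% interval 0.50 to 1.30), and the adjusted p in limma was 0.0919, between 0.0700 and 0.337 over the alternatives that tested it. Idi1 had 9.01, 9.01, 8.77 and 8.65 in AF cKO and 8.18, 8.29, 8.01 and 7.86 in AF CTR (0.77, SE 0.19, adjusted p = 0.156 in limma). Here too every cKO array lay above every CTR array. Sqle had 8.29, 8.62, 7.89 and 7.84 in AF cKO and 7.37, 7.94, 7.17 and 7.55 in AF CTR, with overlap (0.65, SE 0.23, adjusted p = 0.337 in limma). Fdps, the farnesyl diphosphate synthase, differed by 0.67 (SE 0.29, adjusted p = 0.428 in limma). Its AF CTR signal, 6.62 ± 0.30 (SD, n = 4), lies close to the negative control medians. Insig2 had 7.96, 8.28, 8.86 and 8.08 in AF cKO, against 7.53, 7.87, 7.67 and 6.81 in AF CTR (0.82, SE 0.43, adjusted p = 0.503 in limma).

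The fatty acid genes had 3 positive and 2 negative values in AF, and none of the 5 had an unadjusted p under 0.05 in limma. Elovl6 differed by 0.61 (95% interval -0.08 to 1.30) and Acaca, the acetyl-CoA carboxylase, by 0.17 (-0.28 to 0.62). Fasn differed by -0.01 (95% interval -0.58 to 0.55) and Acly by 0.02 (-0.66 to 0.69). Scd1 had 13.93, 13.48, 13.01 and 14.88 in AF cKO and 16.51, 14.94, 14.15 and 13.41 in AF CTR, a difference of -0.93 (SE 0.53, adjusted p = 0.540 in limma). Replicate 1 of AF CTR was the highest Scd1 array and also had the highest mean adipocyte signal of all arrays, 7.49. Replicates 2, 3 and 4 of AF CTR, with Scd1 at 14.94, 14.15 and 13.41, had adipocyte means of 5.94, 6.57 and 6.19. These 3 means lie under the highest negative control median (6.59), so their order is not read. In AF CTR, 5 of 11 adipocyte markers averaged above that median. The part of fat cells in the Scd1 value was not tested.

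In AF, marker lists of other cells differed between the genotypes in their values. All 12 neutrophil markers had positive values in AF cKO against CTR, with a median of 3.10, and mean signals per array of 9.49 to 12.93 in AF cKO and 6.47 to 11.36 in AF CTR. All 12 skeletal muscle markers were positive, with a median of 1.67, and mean signals of 6.60 to 10.32 in AF cKO and 6.45 to 7.40 in AF CTR. None of these markers was called, with 12 of the neutrophil and 9 of the muscle markers at an unadjusted p under 0.05 in limma. Cartilage markers had mean signals of 11.08 to 12.02 in AF cKO and 12.04 to 14.73 in AF CTR, and 3 of 12 were called lower. Their part in the AF values of the synthesis genes was not tested.

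**Figure D3:**
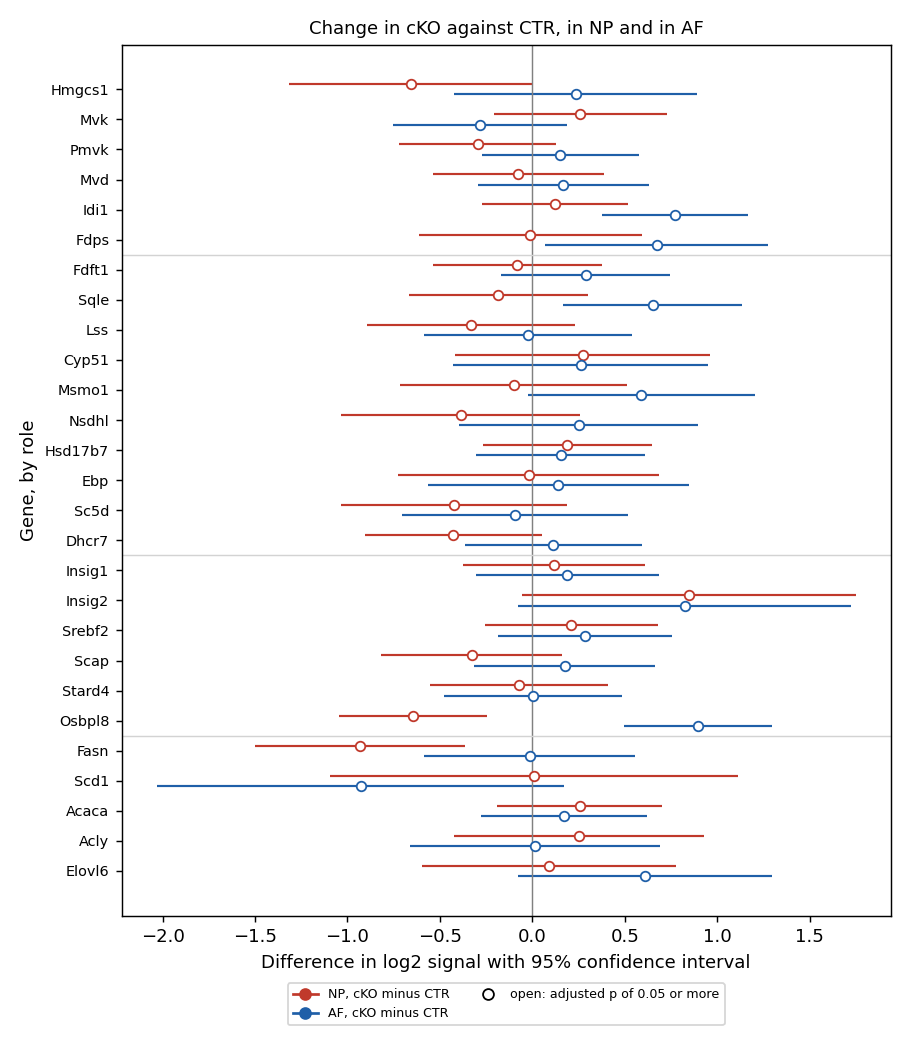
Difference in log2 signal, cKO minus CTR, for each of the 27 genes by role, in NP (red) and in AF (blue), with the 95% confidence interval of the limma fit as a bar. All points are open, since no adjusted p was under 0.05, and Osbpl8 lies at -0.64 in NP and 0.90 in AF.

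The change in NP minus the change in AF was tested as an interaction. None of the 27 genes and none of all 22206 probe sets passed (0% called). At an unadjusted p under 0.05 in limma there were 4 of 27 genes, against 6.74% of all probe sets, all 4 negative. The values were negative for 20 of 27 genes, against 48.4% of all probe sets, with a median of -0.33. At the labels' thresholds 3 genes (Sqle, Osbpl8 and Fasn) passed, against 4.4% of all probe sets. Osbpl8 had the smallest p, with -1.54 (SE 0.27, 95% interval -2.11 to -0.97, adjusted p = 0.203 in limma). It was 1 of 5 probe sets of 22206 (0.0225%) whose groups did not overlap in either tissue with cKO lower in NP and higher in AF, and it is a single gene picked among 27. Sqle differed by -0.84, Fasn by -0.92 and Idi1 by -0.65, each at an adjusted p of 0.732 in limma.

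Seen across the 4 groups, Osbpl8 had similar signals in NP and AF of cKO discs, 9.996 ± 0.093 and 9.93 ± 0.14, and different ones in CTR discs, 10.64 ± 0.36 in NP and 9.04 ± 0.18 in AF (SD, n = 4 each). The NP minus AF difference was 0.06 (95% interval -0.34 to 0.46) in cKO and 1.60 (1.201 to 2.001) in CTR. The interaction above is the test of that contrast, and it missed the threshold.

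**Figure D4:**
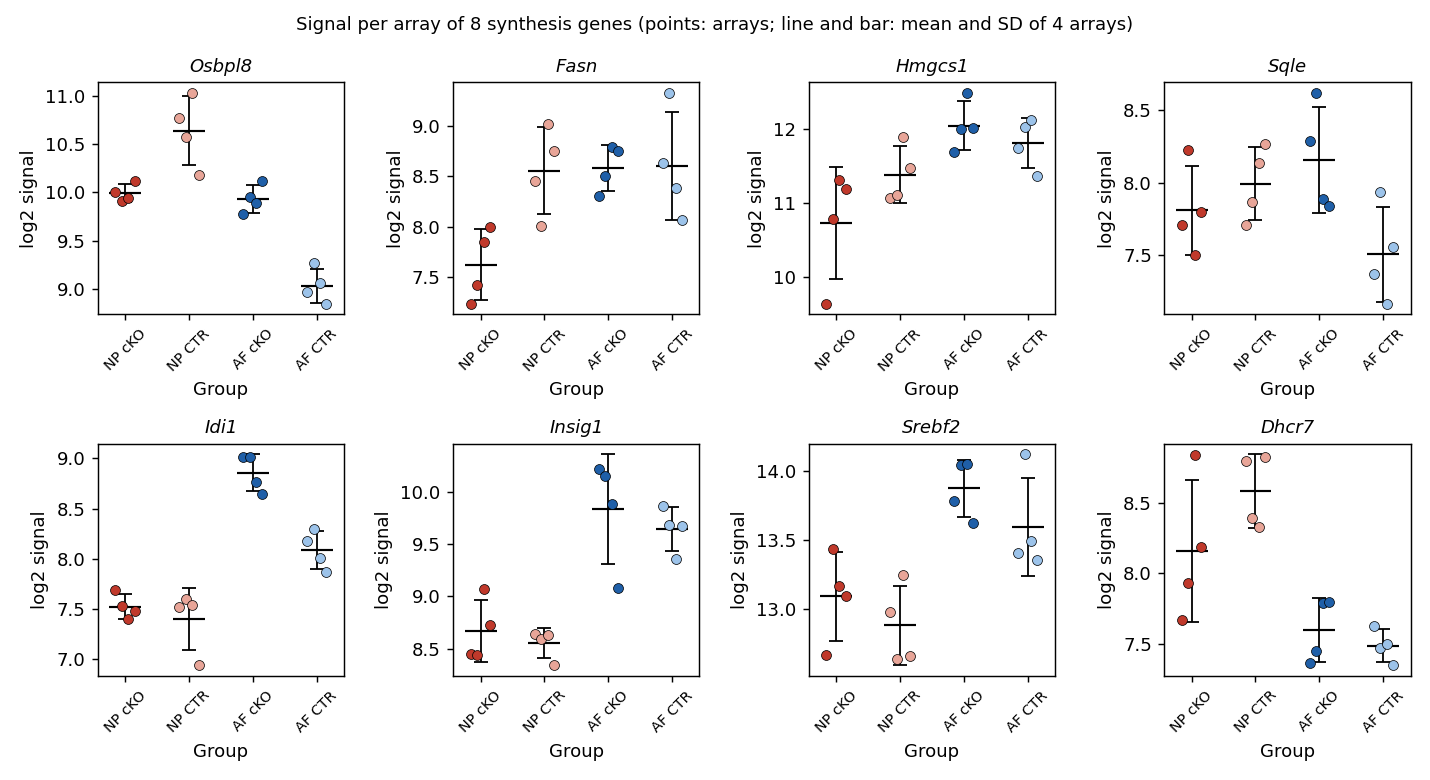
Log2 signal per array of 8 synthesis genes in the 4 groups (points, with the mean as a line and the SD of 4 arrays as a bar). Osbpl8 lies near 10 in NP cKO and AF cKO and apart in NP CTR (10.64) and AF CTR (9.04), while Idi1 and Insig1 lie lower in both NP groups than in both AF groups.

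The mean signal of all 27 genes per array was 8.51 to 8.84 in NP cKO, 8.64 to 9.09 in NP CTR, 8.96 to 9.34 in AF cKO and 8.66 to 9.15 in AF CTR, so that cKO and CTR overlapped in each tissue. By role, mevalonate genes averaged 7.46 to 7.69 in NP cKO and 7.62 to 7.82 in NP CTR, against 7.92 to 8.46 in AF cKO and 7.75 to 8.12 in AF CTR. The genes from squalene synthesis to cholesterol averaged 8.33 to 8.72 in NP cKO and 8.31 to 9.01 in NP CTR, against 8.58 to 9.18 in AF cKO and 8.46 to 8.77 in AF CTR. AF cKO replicates 2 and 3 had the highest means of both sets of steps, and NP CTR replicate 3 the highest of the NP CTR arrays in mevalonate, later sterol, regulatory and fatty acid genes (7.82, 9.01, 9.93 and 9.77, in that order). The means mix probe sets of different scale and are given as a description.

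**Figure D5:**
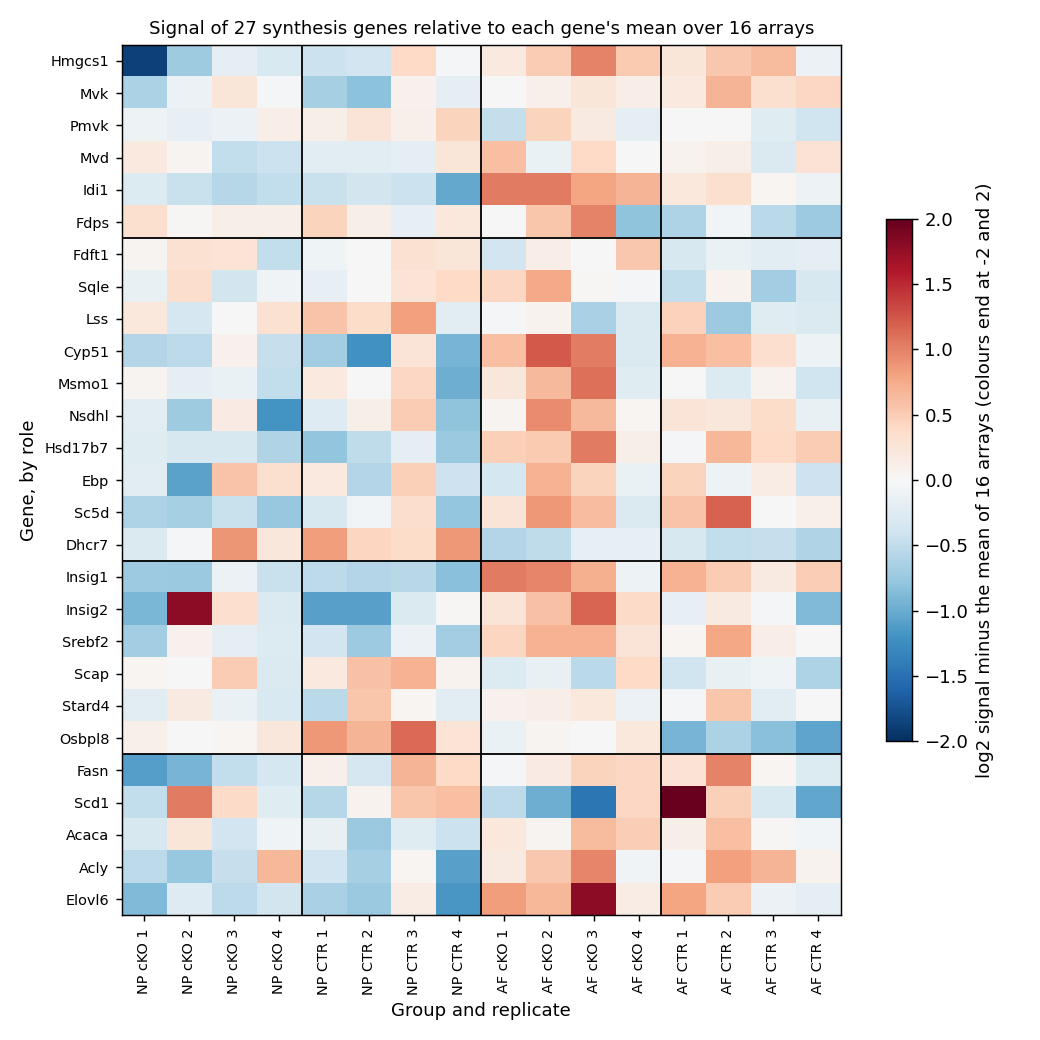
Log2 signal of each of the 27 genes on each of the 16 arrays, minus the mean of that gene over all arrays, by role from mevalonate genes at the top to fatty acid genes at the bottom. Colours end at -2 and 2. Idi1, Cyp51, Hsd17b7 and Insig1 are mostly blue in NP and red in AF, and Osbpl8 is red in NP CTR and blue in AF CTR.

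Genes that lie around the pathway were counted in 4 further lists, and none of their 48 measured genes was called in cKO against CTR in NP or in AF by limma, with 3 at an unadjusted p under 0.05 in each tissue, where 4.58% of all probe sets in NP and 10.6% in AF were. In sterol sensing and SREBP processing (7 genes measured), the differences in NP were smallest in p for Ufd1 (-0.24), Erlin1 (0.19) and Rnf139 (-0.16), and in AF for Erlin1 (0.43), Rnf139 (0.21) and Erlin2 (-0.17), parts of the machinery that degrades sterol-regulated proteins. In the other fatty acid and lipid genes (19 measured), the desaturase Fads2 differed by -0.55 in NP. Elovl7 (5.27 ± 0.47 in NP cKO and 6.15 ± 0.37 in NP CTR) and Thrsp (4.71 ± 0.25 and 4.38 ± 0.25, SD, n = 4 each) lay under the negative control median on all NP arrays, and no difference is given for them. In AF the desaturase Fads1 differed by 0.73, Mid1ip1, a regulator of acetyl-CoA carboxylase, by 0.62 and Mlx by 0.47, with adjusted p of 0.382 to 0.482 in limma, and Mid1ip1 lay under the negative control median on all AF CTR arrays. In sterol efflux and storage (12 measured), the values were -0.51 for Nceh1, 0.31 for Lpcat3 and -0.46 for Abca1 in NP, and 0.67 for Lpcat3, 0.47 for Nr1h3 and 0.48 for Npc2 in AF. In the isoprenoid branches (10 measured), they were -0.56 for Coq2, -0.32 for Ggps1 and -0.26 for Fnta in NP, and -0.39 for Pggt1b and 0.28 for Fnta in AF, where Fntb was under the negative control median on all arrays.

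Between the tissues, 6 of the 48 genes of these lists were called in cKO, where 25.9% of all probe sets were, and 15 in CTR, where 20.1% were. No sterol sensing gene was called by limma in cKO or in CTR, with 0 and 1 at an unadjusted p under 0.05. Of the other fatty acid and lipid genes, 3 of 19 were called in cKO (Me1 higher in NP, Elovl5 and Mlxipl lower) and 8 in CTR (Me1, Fads1, Fads2 and Tecr higher in NP, Acacb, Elovl5, Gpam and Mlxipl lower). Mlxipl lay under the negative control median on all arrays of all 4 groups, so that its calls compare signals not above background. Me1, the malic enzyme that supplies reducing power for lipid synthesis, averaged 13.86 ± 0.58 in NP cKO and 12.40 ± 0.54 in AF cKO, and 14.10 ± 0.40 in NP CTR and 12.52 ± 0.52 in AF CTR (SD, n = 4 each). Elovl5, an elongase of polyunsaturated fatty acids, averaged 8.23 ± 0.38 in NP cKO and 10.52 ± 0.78 in AF cKO, and 8.19 ± 0.60 in NP CTR and 9.82 ± 0.48 in AF CTR. The Me1 and Elovl5 groups were thus apart in opposite directions in both genotypes. Of the efflux and storage genes, 2 of 12 were called in cKO (Nceh1 higher in NP, Npc2 lower) and 4 in CTR (Nceh1, Npc1 and Cyp27a1 higher, Cyp7b1 lower). Cyp7b1 too lay under the negative control median on all arrays of NP CTR and AF CTR. Nceh1, a cholesteryl ester hydrolase, differed by 1.04 (SE 0.28) in cKO and 1.65 (SE 0.28) in CTR. Of the isoprenoid genes, Dhdds, a subunit of the dolichol-making enzyme, was called lower in NP in both genotypes (-0.85 in cKO and -0.79 in CTR), and the prenylation genes Fnta and Rce1 were higher in NP in CTR.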

How the data were processed

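RNA from 16 disc samples was hybridised to 1-colour Affymetrix arrays after RNeasy extraction and GeneChip WT Plus labelling, per the labels. The authors deposited log2 signals made with sst-RMA, per the labels, in Transcriptome Analysis Console, per the submitters' processing notes; its version and the genome build are not given in the sources used here. No further normalization was applied. Of 28846 probe sets, 6640 controls were left out and 22206 tested, of which 19572 carry 1 symbol, none carries several and 2634 carry none. Groups come from the sample labels. Columns with no sample numbered 0.

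A model of 4 group means was fitted by limma 3.58.1 (R 4.3.3) with default moderation, and 5 contrasts were adjusted by Benjamini-Hochberg over all probe sets at a threshold of 0.05. The number of arrays limits the precision. The fit was tested on simulated data. Per gene, the probe set with the highest mean was used. NP and AF with one code in the titles come from 1 animal, which pairs the tissues; same-animal deviations from the group means correlated at -0.293 to 0.348, with 3 of 8 pairs over 0.1. Promoter sequences are from RefSeq (GRCm38.p6), for 22 of 27 measured genes by symbol.

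The members and lists were chosen with earlier results of these data known. Values per array are given for the 4 genes with the smallest adjusted p among those called per contrast, or the 3 smallest where fewer passed, and for Srebf2, Insig2 and Scd1; up to 3 genes per further list are named for cKO against CTR, and those called are named for the tissues. Alternatives changed the normalization (arrays centred on the median, or quantiles matched again), the probe sets (no dim ones, or 1 for every gene), the spread (a trend with intensity, or weighted arrays), the thresholds, the arrays, and the block (animal or replicate number).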

Additional observations from a re-analysis of the deposited data

Results flagged for a closer look

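Of 132 groups of 4 arrays examined for 1 array far from the other 3 (by Dixon's ratio), 5 were found, where chance gives about 1 in 20 for independent groups. These groups are not independent, since means of the same genes are among them, so the count is no test of an array effect. All 5 were in NP, with Mvd, Idi1 and Insig1 on the same array. Mvd was 7.72 on NP CTR replicate 4, against 7.25 to 7.29 on the other NP CTR arrays. Idi1 was 6.94 on the same array, against 7.52 to 7.60, and Insig1 was 8.34 there, against 8.59 to 8.64. The mean of all 27 measured genes was 9.09 on NP CTR replicate 3, against 8.64 to 8.71. The mean of the cholesterol synthesis genes was 8.33 on NP cKO replicate 3, against 8.07 to 8.09.

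Osbpl8 had groups that did not overlap in opposite directions in the tissues, lower in cKO in NP and higher in cKO in AF. The difference of its changes was -1.54, and the test of that difference gave an adjusted p of 0.203 in limma.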

How the results depend on the processing

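Few arrays per group and signals close to the negative controls limit these results. The counts of called genes in cKO against CTR stayed at 0 in NP, in AF and for the difference of these changes under each alternative but the labels' thresholds, which gave 1 (Fasn), 1 (Osbpl8) and 3 (Sqle, Osbpl8 and Fasn). Leaving out each array in turn gave 0 to 0 for these 3 counts, 5 to 11 for NP minus AF in CTR (9 with all arrays, 5 without NP CTR replicate 2, 6 without AF CTR replicate 2 or NP CTR replicate 4) and 7 to 11 in cKO (10 with all arrays). Without AF CTR replicate 1 and AF cKO replicate 3, an omission chosen after seeing the data for the tissue comparisons, the cKO count was 6. With the replicate block (the number in the titles, which the data do not show to pair the genotypes: same-number deviations correlated at -0.275 to 0.208, 4 of 8 over 0.1), the genotype counts stayed at 0, and with the animal as the replicate block, fitted on the 8 arrays of each comparison, the tissue counts were 6 in CTR and 10 in cKO, against 9 and 10 on those 8 arrays without it. Without NP CTR replicate 3, the NP differences of Ufd1 and Rnf139 turned to 0.0065 and 0.028, with ranges of -0.44 to 0.0065 and -0.36 to 0.028 over single omissions. Of 1418 repeats of 52 gene values, 1356 kept direction and call, 55 lost the call, 5 gained one and 2 turned round. All 55 losses fell on genes called between the tissues, the only values with a call to lose. The values of cKO against CTR and of the interaction were never called in the main fit and make up much of the 1356. The pooled count therefore overstates how stable the calls were. The cause of these shifts was not tested.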
